A study of Mus musculus with 24 samples.

Results

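The 37 genes described here encode the integrins, the cell surface receptors for extracellular matrix, and the laminins, trimeric proteins of the basement membrane. They were taken from a count table of 55291 mouse gene symbols by name alone, as every row whose symbol begins with Itga, Itgb or Lama, Lamb or Lamc and ends as a family member does. The rule gave 18 integrin alpha genes, 8 integrin beta genes and 11 laminin genes, and it used no measured value. Of these, 23 were abundant enough for a test in all 26 comparisons, 8 in some of them (Itga1, Itga8, Itga11, Itgal, Lama1, Lama3, Lama4 and Lamc3), and 6 in none (Itga2, Itga9, Itgad, Itgae, Itgam and Itgax).

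Cells of C2C12, a mouse myoblast line, gave the RNA, though the sample labels call them primary myoblasts. A scrambled shRNA line (scr) and knockdown (KD) lines for Baf180, Baf250a and Brd9 were each kept without added metal (NT), with 100 µM CuSO4 (Cu) or with 50 µM ZnSO4 (Zn) for 48 h. Baf180, Baf250a and Brd9 are subunits that mark separate forms of the SWI/SNF chromatin remodelling complex, which moves nucleosomes. The study asked how these forms act in the handling of both metals, and its 12 conditions of 2 replicates gave 24 libraries. Per the methods, every line, scr included, had taken up a lentiviral shRNA vector and been selected with puromycin as a population, while the labels name a lipofectamine knockdown. The methods call the 2 replicates independent biological ones. Neither source used here says which of the shRNAs listed for a target was sequenced, so each KD is 1 line, and the effect of the KD cannot be told apart from a difference between lines.

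An integrin is a pair of 1 alpha and 1 beta subunit, and the pairing sets which matrix protein the cell holds. Muscle cells hold laminin through the Itga7 product, while their precursors also use the Itga6, Itga5 and Itgav products for laminin, fibronectin and vitronectin. In these cells all but the Itgav product pair mostly with the beta subunit of Itgb1. The Itgav product has further beta partners, among them those of Itgb3 and Itgb6. A laminin joins 1 alpha, 1 beta and 1 gamma chain, and the alpha chain decides which receptors bind it. The Lama2 chain is the main one around adult muscle fibres, Lama4 is known from vessels and mesenchymal tissue, and Lama1 and Lama5 from embryonic and epithelial basement membranes.

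Total counts ran from 12719173 to 75179394 in 23 libraries, and the Baf250a KD Zn replicate 2 library held 495778, of which 1983 fell on these genes. In that library a count of 3 is worth 6.05 CPM (counts divided by library size, with edgeR's TMM factors), so it says little on genes of low level. Each target was lowest in its own KD line. Pbrm1, the gene of Baf180, reached 75.7 CPM at most in the Baf180 KD libraries and 97.8 at least in scr. Arid1a, the gene of Baf250a, reached 146 CPM at most in the Baf250a KD line against 268 at least in scr, and Brd9 reached 17.6 against 26.7.

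All 11 myoblast markers had over 1 CPM in at least 1 library of every line, with summed levels of 3360 to 4350 CPM in scr, 2570 to 2830 in Baf180 KD, 2130 to 2330 in Baf250a KD and 2470 to 2900 in Brd9 KD cells. Single myoblast markers went both ways in untreated cells, with 4 higher and 4 lower than scr in Baf180 KD, 4 and 5 in Baf250a KD and 3 and 5 in Brd9 KD. The 8 markers of differentiated muscle summed to 71.8 to 103 CPM in scr, 119 to 172 in Baf180 KD (5 called higher, 0 lower), 59.3 to 75 in Baf250a KD (2 and 2) and 32.2 to 37.9 in Brd9 KD (0 and 5). The part of these in the results on Lama2 and Itga7 was not tested. The 8 fibroblast markers summed to 9.63 to 16.9 CPM in scr, 38.3 to 50.2 in Baf180 KD, 146 to 159 in Baf250a KD and 27.6 to 38.4 in Brd9 KD cells. That sum was Pdgfra and Ly6a, since Thy1, Dpt, Pi16, Clec3b, Dpp4 and Tcf21 were under 1 CPM in every library. Of the 2 or 3 fibroblast markers abundant enough for a test, 2 were higher than in scr in untreated Baf180 KD, 3 in Baf250a KD and 2 in Brd9 KD cells. The order of the lines in this sum is the order they take for several genes below, and its part in those results was not tested. The 6 endothelial markers summed to at most 6.05 CPM and the 7 leukocyte markers to at most 9.85 CPM in any library, with Pecam1, Cdh5, Emcn, Cldn5, Ptprc, Cd3e, Csf1r and Tyrobp under 1 CPM everywhere. Of the others, Kdr had 3.39 to 5.37 CPM in scr and at most 1.68 in any KD library, Cd68 had 2.98 to 6.14 in scr and 3.02 to 5.91 in KD libraries, and Lyz2 had 1.51 to 3.94 in Baf250a KD and at most 0.493 elsewhere.

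In scr cells the receptor of the highest level for its length was the common beta subunit gene Itgb1, at a median of 273 CPM per kb of exons over 6 libraries. Itga5, the alpha subunit of the fibronectin receptor, followed at 150 CPM per kb, Itga7 at 114 and Itgb5 at 29.7. Among the laminin chains the levels were 55.3 CPM per kb for Lama5, 33.9 for Lamb2, 33.8 for Lamc1 and 29.2 for Lamb1. Lama2 stood at 0.943 CPM per kb, Itga11 at 0.0225 and Lama4 at 0.00640. Neighbours in this order overlapped over the 6 libraries from Lamb2 through Lamc1 and Itgb5 to Lamb1.

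The laminin alpha chains held the largest differences between lines. Lama4 (chr10:38965515-39110188, GRCm38) had 0.125 and 0.182 CPM in the untreated scr replicates, which were 2 and 4 counts. It had 26.3 and 24 CPM in Baf180 KD, 76.4 and 78.3 in Baf250a KD, and 3.26 and 3.07 in Brd9 KD cells. No KD library came near scr, and the lines stood apart from each other. The log2 fold change over scr was 7.25 ± 0.27 (SE, adjusted p = 9.93e-09, edgeR) for Baf180 KD, 8.85 ± 0.22 (adjusted p = 2.36e-11) for Baf250a KD and 4.28 ± 0.43 (adjusted p = 0.000459) for Brd9 KD. With so few counts in scr the size of the fold is loose: the ratios of summed counts were 159, 489 and 20.1, with 95% intervals for counting error of 72.7 to 434, 224 to 1330 and 8.94 to 56. In bulk RNA, fewer cells with the transcript and less transcript per cell cannot be told apart, here and for every gene below.

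Metal left this order in place. Over all 3 treatments Lama4 lay between 0.0585 and 0.182 CPM in scr, 23.1 and 26.3 in Baf180 KD, 65.1 and 80.9 in Baf250a KD, and 2.34 and 3.41 in Brd9 KD cells, so no ranges of lines overlapped. The log2 fold change over scr in Cu was 8.47, 10.06 and 5.42 for Baf180, Baf250a and Brd9 KD, and in Zn it was 8.17, 9.94 and 5.04, all called by edgeR at adjusted p = 0.000807 or lower. Between KD lines over the 3 treatments, Baf180 KD was lower than Baf250a KD by a log2 difference of -1.63 ± 0.06 and higher than Brd9 KD by 3.05 ± 0.08, and Baf250a KD was higher than Brd9 KD by 4.68 ± 0.08 (largest adjusted p = 2.97e-14, edgeR).

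**Figure D1:**
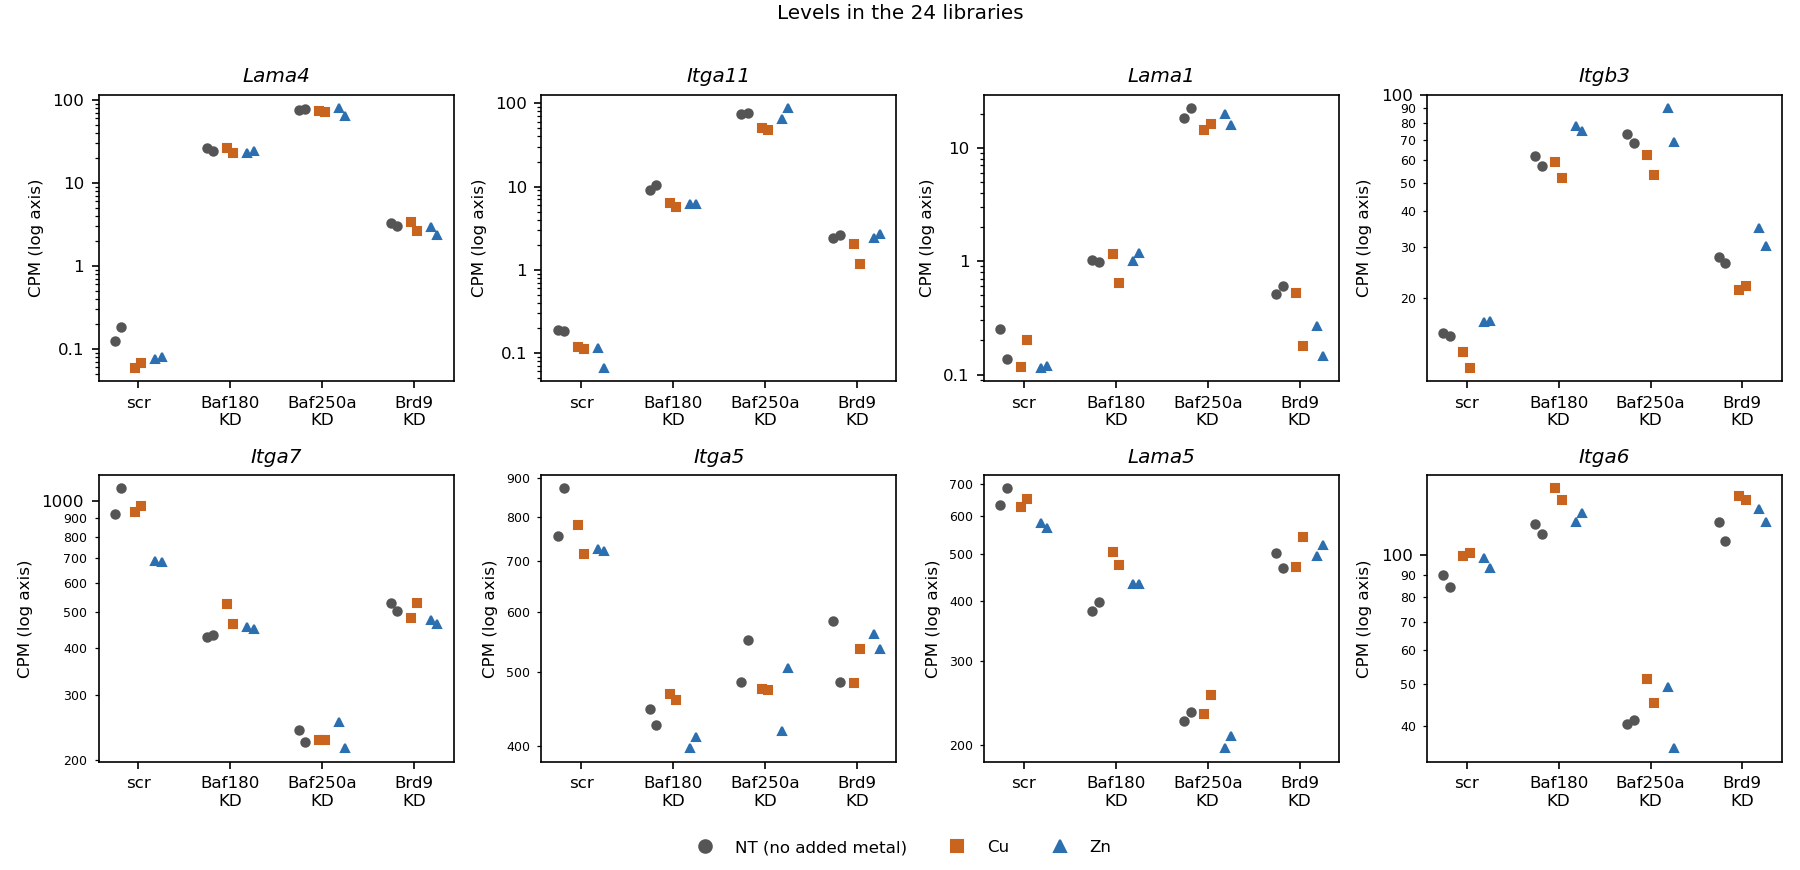
Levels of 8 members in CPM on log axes, with 1 point per library (circles NT, squares Cu, triangles Zn; 2 replicates each) and the 4 lines along the x axis. Lama4 and Itga11 climb from scr through Brd9 KD and Baf180 KD to Baf250a KD, Itga7, Itga5 and Lama5 are lower in every KD library than in any scr library, and Itga6 is lower only in Baf250a KD.

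Lama1 had 0.250 and 0.136 CPM in untreated scr, 1.03 and 0.989 in Baf180 KD, 18.5 and 22.6 in Baf250a KD, and 0.517 and 0.601 in Brd9 KD replicates. Its log2 fold change over scr was 2.39 ± 0.55 (adjusted p = 0.00518, edgeR) in Baf180 KD and 6.72 ± 0.30 (adjusted p = 1.51e-09) in Baf250a KD cells, and the filter on low counts left it untested in Brd9 KD. The call in Baf180 KD rested on 7 counts in scr, and DESeq2 did not make it. Baf250a KD exceeded Baf180 KD by a log2 difference of 4.18 and Brd9 KD by 5.69 over the 3 treatments. Lama2, the muscle laminin chain, was 3.24-fold higher in Baf180 KD, 3.59-fold in Baf250a KD and 2.35-fold in Brd9 KD cells (largest adjusted p = 0.000417, edgeR). Untreated scr held 15.6 and 15.3 CPM of it, against 34.5 CPM in the lowest untreated KD library.

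Lama5 moved the other way. The untreated replicates held 632 and 685 CPM in scr, 380 and 398 in Baf180 KD, 225 and 235 in Baf250a KD, and 502 and 468 in Brd9 KD cells. Every KD library lay below both scr libraries. The gene was 1.71-fold lower in Baf180 KD (adjusted p = 0.000203, edgeR), 2.93-fold lower in Baf250a KD (adjusted p = 4.9e-08) and 1.35-fold lower in Brd9 KD cells (adjusted p = 0.0117). Lama3 did not exceed 0.691 CPM in any library.

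With levels per kb of exons, the alpha chains can be read as shares of their sum. Lama5 made up a median of 98.3% (97.9 to 98.4, n = 6 libraries) in scr, 89.1% (86.2 to 90.4) in Baf180 KD, 63.6% (59.6 to 67.7) in Baf250a KD and 94.7% (94.3 to 95.5) in Brd9 KD cells. The ranges of the 4 lines did not overlap. Lama4 made up 0.0125%, 4.6%, 19.7% and 0.552% in the same order of lines, Lama2 made up 1.65%, 6.06%, 10.4% and 4.75%, and Lama1 0.0236%, 0.25%, 5.9% and 0.0874%. These shares depend on the length taken for each gene. With the length of the longest annotated transcript in place of all exons, which was chosen after the data were seen, Lama5 made up 97.1%, 81.8%, 50% and 91.3%, and Lama4 30.9% in Baf250a KD cells.

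**Figure D2:**
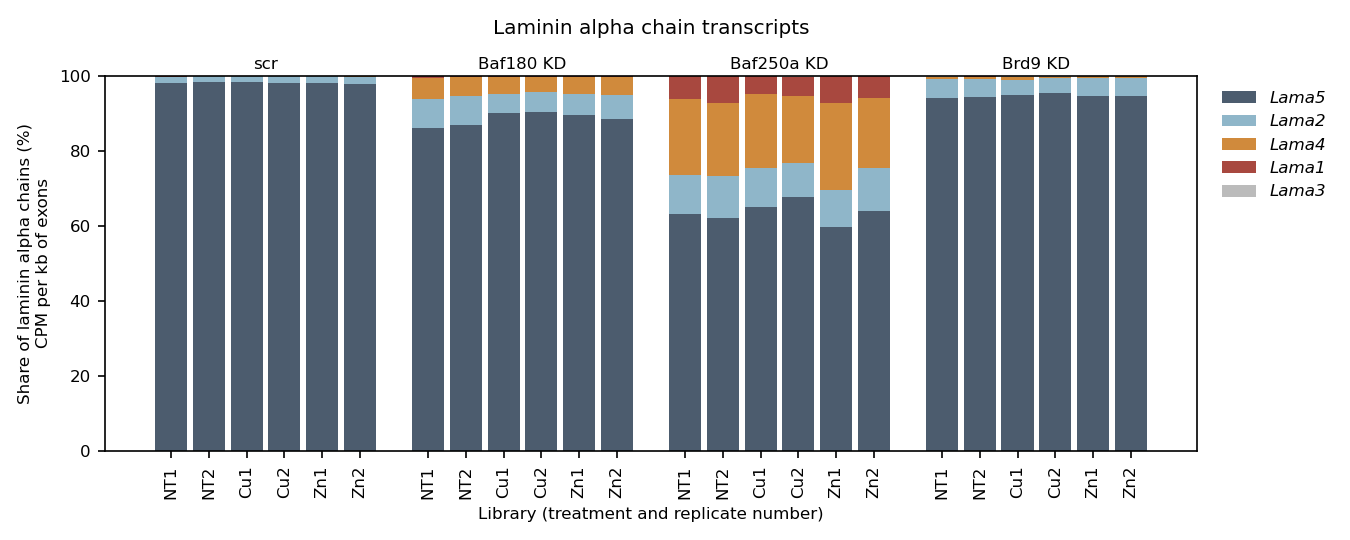
Shares of the 5 laminin alpha chain transcripts in each of the 24 libraries, as percent of their summed CPM per kb of exons, with bars from 0 to 100 grouped by line. Lama5 takes at least 97.9% in scr and at most 67.7% in Baf250a KD libraries, where Lama4 takes 18 to 23.2%.

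The bases before the start are shown for Itga11, a collagen receptor gene described below, and Lama5, because they moved in opposite directions in all 3 KD lines. The Itga11 window was shortened to end before the annotated gene. The sequences are RefSeq's for GRCm38.p6, 5′ to 3′, with CpG dinucleotides in capitals. The first covers chr9:62677605-62677825 on the plus strand and holds 11 CpG, and the second covers chr2:180225860-180226109 on the minus strand and holds 19.
Itga11: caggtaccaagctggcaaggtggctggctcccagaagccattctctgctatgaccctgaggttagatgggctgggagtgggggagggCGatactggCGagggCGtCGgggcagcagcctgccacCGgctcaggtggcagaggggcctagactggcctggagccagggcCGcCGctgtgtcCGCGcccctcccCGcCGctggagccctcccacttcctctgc
Lama5: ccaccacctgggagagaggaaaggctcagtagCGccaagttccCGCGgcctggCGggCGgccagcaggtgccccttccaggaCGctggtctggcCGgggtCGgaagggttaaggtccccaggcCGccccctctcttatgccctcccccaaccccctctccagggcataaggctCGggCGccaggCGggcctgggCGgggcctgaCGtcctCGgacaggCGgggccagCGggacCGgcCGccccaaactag
The median over 32851 RefSeq windows of 250 bases before a start was 6 CpG. Windows were found for 23 of the 37 genes, 26 windows in all, and Lama4, Lama1, Itga7 and Itgb3 are among the 14 genes without one.

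Every laminin trimer also needs a beta and a gamma chain. Lamb2 had 208 and 222 CPM in untreated scr, 186 and 195 in Baf180 KD, 336 and 330 in Baf250a KD, and 147 and 141 in Brd9 KD cells. It was 1.51-fold higher in Baf250a KD (adjusted p = 0.000205, edgeR) and 1.48-fold lower in Brd9 KD (adjusted p = 0.00399), and in Baf180 KD the log2 fold change was -0.19 ± 0.10 (adjusted p = 0.173). Lamb1 was 1.35-fold higher in Baf180 KD (adjusted p = 0.00571) and 1.23-fold higher in Brd9 KD cells (adjusted p = 0.0344), with a log2 fold change of 0.05 ± 0.10 in Baf250a KD. As shares of the beta chains per kb, Lamb2 and Lamb1 took 53.9% and 45.6% in scr, 62.6% and 36.3% in Baf250a KD, and 39.5% and 60.0% in Brd9 KD cells. Lamb3 was called only in Baf250a KD among the untreated lines, at 3.33-fold higher. Lamc1 differed from scr by a log2 fold change of 0.00, 0.24 and -0.13 in the 3 KD lines, none called (lowest adjusted p = 0.0513). Over the 3 treatments, though, Lamc1 had 343 to 392 CPM in the Baf250a KD libraries, above the 265 to 293 CPM of scr.

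Among the receptors of laminin, Itga7 encodes the main alpha subunit of muscle. It had 920 and 1080 CPM in untreated scr, 429 and 434 in Baf180 KD, 241 and 224 in Baf250a KD, and 530 and 504 in Brd9 KD cells. No KD library reached the scr level. The log2 fold change was -1.22 ± 0.12 (adjusted p = 9.8e-06, edgeR), -2.14 ± 0.11 (adjusted p = 6.11e-09) and -0.94 ± 0.10 (adjusted p = 0.000637). Over the 3 treatments Baf250a KD was lower than both other KD lines (log2 differences 0.98 for Baf180 against Baf250a KD and -1.10 for Baf250a against Brd9 KD), while Baf180 KD differed from Brd9 KD by -0.12 ± 0.05 (adjusted p = 0.0963).

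Itga6, the laminin receptor subunit of precursor and epithelial cells, went in opposite directions in the KD lines. It had 90.0 and 84.3 CPM in untreated scr, 118 and 112 in Baf180 KD, 40.5 and 41.4 in Baf250a KD, and 119 and 108 in Brd9 KD replicates. It was 1.31-fold higher in Baf180 KD (adjusted p = 0.0105, edgeR) and in Brd9 KD (adjusted p = 0.0226), and 2.17-fold lower in Baf250a KD (adjusted p = 1.75e-06). The difference itself was tested: Baf180 KD exceeded Baf250a KD by a log2 difference of 1.46 ± 0.06 and Baf250a KD was below Brd9 KD by -1.45 ± 0.06 (largest adjusted p = 4.14e-14). Itga3, the third laminin receptor subunit, was 1.66-fold higher in Baf180 KD and 1.45-fold higher in Baf250a KD cells, and its log2 fold change of 0.28 ± 0.10 in Brd9 KD was not called (adjusted p = 0.0629). Itgb4, the beta subunit that pairs with the Itga6 product in epithelia, was 2.46-fold higher in Baf180 KD and 5.11-fold higher in Baf250a KD, at no more than 8.46 CPM in any library.

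Of the collagen receptors, Itga11 (chr9:62677826-62783982), which binds fibrillar collagen and is known from mesenchymal cells, followed Lama4. It had 0.188 and 0.182 CPM in untreated scr (7 counts in all), 9.14 and 10.3 in Baf180 KD, 74.4 and 75.7 in Baf250a KD, and 2.38 and 2.61 in Brd9 KD replicates. The groups were far apart. The log2 fold change over scr was 5.66 ± 0.34 (adjusted p = 2.43e-07, edgeR), 8.59 ± 0.21 (adjusted p = 2.36e-11) and 3.72 ± 0.44 (adjusted p = 0.00093). The ratios of summed counts were 52.7 (95% interval for counting error 25.4 to 132), 407 (197 to 1010) and 13.4 (6.25 to 34.4). Between the KD lines the log2 differences were -3.16 (Baf180 against Baf250a KD), 1.72 (Baf180 against Brd9 KD) and 4.88 (Baf250a against Brd9 KD), all called. Per the labels the plates were coated with collagen, which was shared by all lines.

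Itga1 had 0.313 and 0.136 CPM in untreated scr, 0.896 and 0.865 in Baf180 KD, 7.84 and 8.05 in Baf250a KD, and 1.14 and 1.07 in Brd9 KD cells. The log2 fold change was 2.00 ± 0.57 (adjusted p = 0.0148, edgeR), 5.16 ± 0.35 (adjusted p = 7.76e-08) and 2.35 ± 0.53 (adjusted p = 0.0142), and DESeq2 made the call only in Baf250a KD. Its exons share 685 bases with another gene model on the same strand. Itga10 was 2.94-fold higher in Baf180 KD and 1.81-fold higher in Baf250a KD cells, at no more than 6.59 CPM, and it shares 1739 exonic bases with another model on its strand. Itga2 had at most 0.0455 CPM.

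The receptors of fibronectin and vitronectin split. Itga5 had 754 and 872 CPM in untreated scr, 448 and 426 in Baf180 KD, 486 and 551 in Baf250a KD, and 584 and 486 in Brd9 KD replicates, so every KD library lay below scr. It was 1.88-fold, 1.60-fold and 1.51-fold lower (adjusted p = 7.92e-05, 0.000184 and 0.00798, edgeR). Its beta partner Itgb1 had 1070 and 969 CPM in untreated scr and log2 fold changes of -0.16, 0.00 and -0.21, none called. The alpha subunit gene Itgav was 1.27-fold higher in Baf180 KD and 1.78-fold higher in Baf250a KD cells, and a log2 fold change of 0.25 in Brd9 KD was not called. With GC content and length corrected for, Itgav was at -0.03 (adjusted p = 0.787) in Baf180 KD and 0.41 (adjusted p = 0.000511) in Baf250a KD, and Itgb1 was called lower in Baf180 KD (-0.26, adjusted p = 0.016) and Brd9 KD (-0.31, adjusted p = 0.00918). Itgb3, the beta subunit of the vitronectin receptor, was 3.92-fold higher in Baf180 KD, 4.62-fold in Baf250a KD and 1.82-fold in Brd9 KD cells. Itgb5 was 1.98-fold higher in Baf180 KD and 2.77-fold higher in Baf250a KD cells, and its log2 fold change was 0.01 ± 0.12 (adjusted p = 0.952) in Brd9 KD.

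Itgb6, a further partner of the Itgav product that binds latent TGF-beta, was lower in all 3 lines. The untreated replicates had 10.6 and 7.87 CPM in scr, 2.55 and 2.27 in Baf180 KD, 5.01 and 4.24 in Baf250a KD, and 3.57 and 4.61 in Brd9 KD cells. The log2 fold change was -1.94 ± 0.24 (adjusted p = 6.75e-05, edgeR), -1.02 ± 0.21 (adjusted p = 0.00101) and -1.17 ± 0.24 (adjusted p = 0.0104). Itgb8, which binds the same ligand, was 1.95-fold, 2.83-fold and 1.52-fold higher. With GC content and length corrected for, its log2 fold changes were 0.43, 0.86 and 0.10, and the call in Brd9 KD was lost (adjusted p = 0.614).

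Receptors known from leukocytes were scarce. Itgb2, their common beta subunit, had 0.688 and 0.455 CPM in untreated scr, 1.79 and 2.39 in Baf180 KD, 2.64 and 3.01 in Baf250a KD, and 1.86 and 1.34 in Brd9 KD cells. Its log2 fold change was 1.88 ± 0.43, 2.30 ± 0.37 and 1.53 ± 0.42 (adjusted p = 0.00467, 0.000194 and 0.0276, edgeR), and DESeq2 did not call it in Brd9 KD. None of its alpha partners exceeded 0.675 CPM in any library. Itgal lay between 0.318 and 0.526 CPM in scr, at 0.278 at most in Baf180 and Baf250a KD, and between 0.130 and 0.675 in Brd9 KD libraries, with a log2 difference of -2.23 ± 0.56 between Baf180 and Brd9 KD (adjusted p = 0.00313).

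Itgb7 had 13.4 and 17.3 CPM in untreated scr, 19.0 and 17.3 in Baf180 KD, 8.27 and 6.12 in Baf250a KD, and 12.7 and 10.8 in Brd9 KD replicates, and it was called only in Baf250a KD, at 2.18-fold lower (adjusted p = 0.000252, edgeR). Its partner Itga4, which binds fibronectin and VCAM1, was 1.64-fold lower there (adjusted p = 0.0102), and with GC content and length corrected for its log2 fold change went from -0.72 to -1.33. Itga2b, the platelet fibrinogen receptor subunit, did not exceed 5.15 CPM and was 2.23-fold higher in untreated Baf250a KD cells. In untreated Baf180 KD its log2 fold change of 0.65 ± 0.31 was not called (adjusted p = 0.111), though all 6 libraries of both lines lay above scr and it was called higher in Baf180 KD in Cu (2.02-fold) and Zn (2.32-fold). In the same group of scarce genes, Itga9 and Itgae stayed at or under 0.345 CPM and Lamc3 at or under 0.897 CPM. Itga8 did not exceed 0.848 CPM apart from the shallow Zn library of Baf250a KD, where 2 counts are worth 3.94 CPM. Its log2 difference of -3.20 ± 0.81 between Baf180 and Baf250a KD (adjusted p = 0.00304) includes that library, and in untreated Baf250a KD cells, where it had 30 counts against 2 in scr, it was called at 3.44 ± 0.89 (adjusted p = 0.00537). Itga8 had at most 0.18 CPM in any other line. It passed the filter on low counts only through Baf250a KD libraries, so both differences were partly fixed by the filter.

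**Figure D3:**
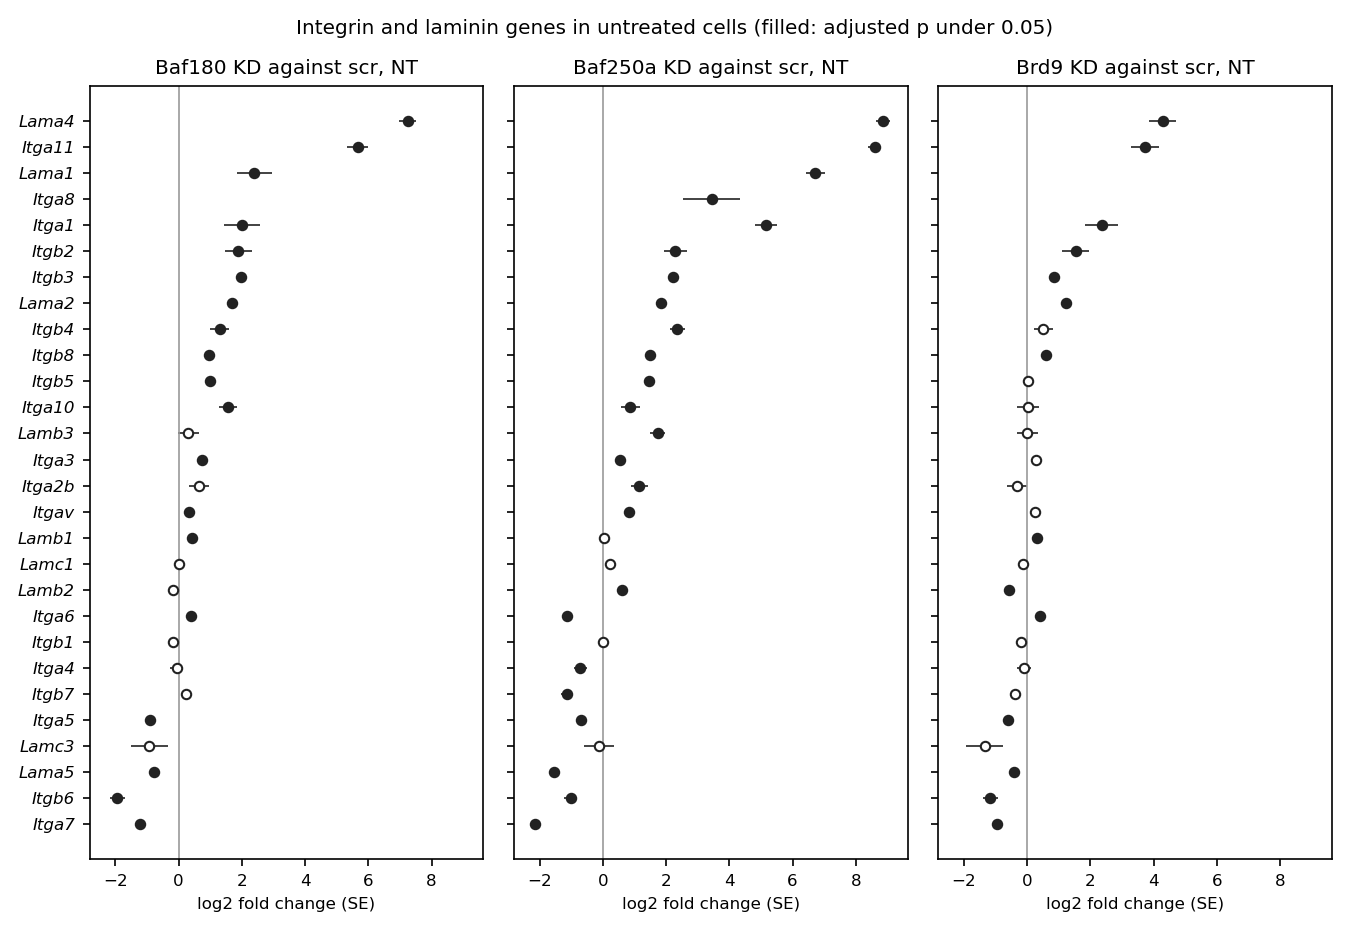
Log2 fold change over scr (x axis, with SE from edgeR; n = 2 against 2 libraries) of the members tested, apart from 1 not reported here, in untreated Baf180, Baf250a and Brd9 KD cells, with filled points for adjusted p under 0.05. Lama4 and Itga11 lie farthest right in all 3 panels, and Itga7, Lama5, Itga5 and Itgb6 are filled and left of 0 in all 3.

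Counted over the genes, 20 of 28 tested were called in untreated Baf180 KD cells, 15 higher and 5 lower, where 41% of all 14851 genes tested were called, 21.7% higher and 19.3% lower. In Baf250a KD 25 of 29 were called, 17 higher and 8 lower, against 57.8% of all genes (28.9% in each direction). In Brd9 KD 14 of 27 were called, 9 higher and 5 lower, against 29.2% of all genes (15.1% higher and 14.1% lower). The median log2 fold change of the tested integrin and laminin genes was 0.41, 0.84 and 0.01 in the 3 lines, beside 0.03, 0.00 and 0.01 over all genes, and the median of its absolute value was 0.92, 1.16 and 0.43, beside 0.39, 0.53 and 0.32. A gene that enters the test only because of its level in a KD line had to differ, so these counts describe the genes that passed the filter and not the family. The count in Baf180 KD was 13 without its NT replicate 2, and that in Brd9 KD was 7 and 6 without its NT replicates 1 and 2.

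The 3 comparisons share the scr libraries. Of the 27 genes tested in all 3, 7 were called higher in each (Itga1, Itga11, Itgb2, Itgb3, Itgb8, Lama2 and Lama4), where 10.5% of all genes were, and 4 lower in each (Itga5, Itga7, Itgb6 and Lama5), where 10.1% were. Itga6 was the 1 gene called in all 3 with mixed direction. The call of Itgb8 in Brd9 KD was the one lost when GC content and length were corrected for, as given above.

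With both lines in Cu, 22 of 29 tested genes were called for Baf180 KD against scr (16 higher, 6 lower), 23 of 28 for Baf250a KD (16 and 7) and 11 of 29 for Brd9 KD (8 and 3), where 24.9%, 41.2% and 12.2% of all genes were called. By direction these were 14.2% higher and 10.7% lower, 21.1% higher and 20% lower and 6.94% higher and 5.27% lower. With both in Zn the counts were 25 of 27 (17 and 8), 25 of 27 (17 and 8) and 16 of 27 (10 and 6), where 49.9%, 57.5% and 23.2% were called, or 24.9% higher and 24.9% lower, 29.4% higher and 28.1% lower and 12.6% higher and 10.6% lower. The Baf180 KD count in Cu was 10 and 11 without its Cu replicates 1 and 2, and the Brd9 KD count in Cu was 2 and 3 without its own replicates and 18 without scr Cu replicate 1. The Baf250a KD count in Zn was 16 without its replicate 1, which leaves the shallow library, and 16 and 15 without scr Zn replicates 1 and 2. Without the shallow library itself it was 26. Called higher in NT, Cu and Zn alike were 13 genes in Baf180 KD, 14 in Baf250a KD and 5 in Brd9 KD (Itga6, Itga11, Itgb3, Lama2 and Lama4), and lower in all were 3 (Itga5, Itga7 and Itgb6), 6 (Itga4, Itga5, Itga6, Itga7 and Lama5 among them) and 3 (Itga5, Itga7 and Lamb2). Of all genes tested in the 3 treatments, 10.7%, 15.2% and 5.25% were called higher in all of them in Baf180, Baf250a and Brd9 KD, and 5.85%, 11.5% and 3.4% lower.

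Taken over its 6 libraries, each KD line can also be set against the 6 of scr without a model. Of 31 genes, 22 did not overlap with scr in Baf180 KD (16 above, 6 below), 24 in Baf250a KD (15 above, 9 below) and 16 in Brd9 KD (10 above, 6 below), where 24%, 28.2% and 16.3% of all genes did not overlap. Without the shallow library Baf250a KD gave 24 again, where 36.3% of all genes did not overlap. Above scr in all 3 lines were Itga1, Itga3, Itga11, Itgb2, Itgb3, Itgb4, Lama2 and Lama4, and below it Itga5, Itga7, Itgb6 and Lama5. Itga1, Itga11, Lama1 and Lama4 passed the filter on low counts only through KD libraries, so their separation from scr was partly fixed by the filter.

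Between KD lines over the 3 treatments, 24 of 31 genes differed between Baf180 and Baf250a KD (45.1% of all genes), 20 between Baf180 and Brd9 KD (37.5%) and 29 between Baf250a and Brd9 KD (54.5%). Against Brd9 KD, 15 genes were higher and 5 lower in Baf180 KD (20.5% and 17% of all genes), and 20 higher and 9 lower in Baf250a KD cells (26.6% and 27.9%). The largest differences were those of Lama4, Lama1 and Itga11 given above, with Itga8 and Itgal at levels near their floor. As given above, Itga8 passed the filter on low counts only through Baf250a KD libraries. Itgb3 set both Baf180 KD (log2 difference 1.24) and Baf250a KD (1.39) above Brd9 KD, and differed by -0.16 ± 0.07 between them (adjusted p = 0.0571, edgeR).

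Within a line a metal called between 0% and 21.4% of the tested integrin and laminin genes, beside 0.0197% to 17.6% of all genes. Cu called none of 25 in scr cells by edgeR and 0 by DESeq2, with 3 at an unadjusted p under 0.05 in edgeR, where 0.0333% of all genes were called (0.00667% higher and 0.0267% lower). Zn called 4 of 25 in scr (1 higher, 3 lower), where 17.6% of all genes were (10.5% higher and 7.13% lower). Itgb8 rose with Zn from 10.9 and 9.19 CPM to 20.4 and 21.2 CPM, a log2 fold change of 1.07 ± 0.19 (adjusted p = 0.0275, edgeR). Itga7 fell from 920 and 1080 CPM to 688 and 684 CPM, by -0.52 ± 0.10 (adjusted p = 0.0275). Lamb2 fell from 208 and 222 CPM to 174 and 170 CPM, by -0.31 ± 0.08 (adjusted p = 0.0391), and Lamb1 fell by 0.27 on the log2 scale (adjusted p = 0.0497). In each of the 4 the Zn and NT libraries did not overlap, which is nearly given for genes called from these same libraries.

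These scr Zn calls stood beside a shift in GC content of the libraries. The slope of log2 level on GC content, per 10% GC, was 0.107 and 0.318 in the scr NT libraries and -0.253 and -0.345 in the scr Zn libraries. Itgb8 has 40.4% GC in its exons, and Itga7, Lamb2 and Lamb1 have 57.8%, 58.8% and 52.5%. With a correction for GC content and length the log2 changes were 0.32, -0.36, -0.09 and -0.19, none called, and without scr NT replicate 2, scr Zn replicate 1 or scr Zn replicate 2 the count of calls was 0.

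In Baf180 KD cells Cu called 6 of 28 genes (4 higher, 2 lower), where 13.8% of all genes were called (5.46% higher and 8.3% lower). Itga4 fell with Cu from 7.08 and 8.65 CPM to 3.14 and 4.35 CPM (log2 -1.10 ± 0.22, adjusted p = 0.0148, edgeR). Itgb7 rose from 19.0 and 17.3 CPM to 36.8 and 27.4 CPM (log2 0.79 ± 0.14, adjusted p = 0.0117), and Itga11 fell from 9.14 and 10.3 CPM to 6.32 and 5.67 CPM (log2 -0.73 ± 0.16, adjusted p = 0.0186). The products of Itga4 and Itgb7 can pair as 1 integrin, and the genes moved in opposite directions. Itga3 (0.32) and Lama5 (0.29) also rose. With the replicate number as a block, which the libraries of this line follow weakly, Cu called 13 and Zn 3, and with the block and the GC and length correction 4 and 0. The unblocked Cu count was 0 without Cu replicate 1 or without NT replicate 2, and 3 without NT replicate 1. With GC content and length corrected for Itga4, Itgb7 and Itga11 kept their calls. Zn called none of 28 in this line by edgeR and 0 by DESeq2, with 8 at an unadjusted p under 0.05, where 0.0197% of all genes were called (0.0131% higher and 0.00656% lower).

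In Baf250a KD cells Cu called 2 of 29 genes, both collagen receptors and both lower, where 1.27% of all genes were called (0.626% higher and 0.646% lower). Itga11 fell from 74.4 and 75.7 CPM to 50.7 and 48.3 CPM (log2 -0.59 ± 0.10, adjusted p = 0.000898, edgeR), and Itga1 fell from 7.84 and 8.05 CPM to 4.12 and 5.18 CPM (log2 -0.78 ± 0.18, adjusted p = 0.0266). DESeq2 called neither. One call remained without Cu replicate 1 and 1 without NT replicate 2. Zn called 3 of 29 (2 higher, 1 lower), where 15.9% of all genes were called (8.85% higher and 7.02% lower). Itgb8 fell with Zn from 27.5 and 30.4 CPM to 16.7 and 13.8 CPM (log2 -0.81 ± 0.15, adjusted p = 0.000861), Lamb3 rose from 6.13 and 5.79 CPM to 9.81 and 7.89 CPM (0.70 ± 0.20, adjusted p = 0.0212), and Lamb1 rose from 314 and 296 CPM to 400 and 321 CPM (0.31 ± 0.11, adjusted p = 0.0475). DESeq2 called none of the 3. The count was 0 without Zn replicate 1, 7 without the shallow Zn replicate 2, 1 without NT replicate 2 and 1 without Cu replicate 2.

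In Brd9 KD cells Cu called 1 of 29 genes, where 0.274% of all genes were called (0.174% higher and 0.1% lower). Itgb7 rose from 12.7 and 10.8 CPM to 26.3 and 26 CPM (log2 1.07 ± 0.12, adjusted p = 0.0133, edgeR), and the call was lost without either Cu library or without NT replicate 2. Zn called none of 29 by edgeR and 0 by DESeq2, with 2 at an unadjusted p under 0.05, where 0.0334% of all genes were called (0.0267% higher and 0.00668% lower).

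**Figure D4:**
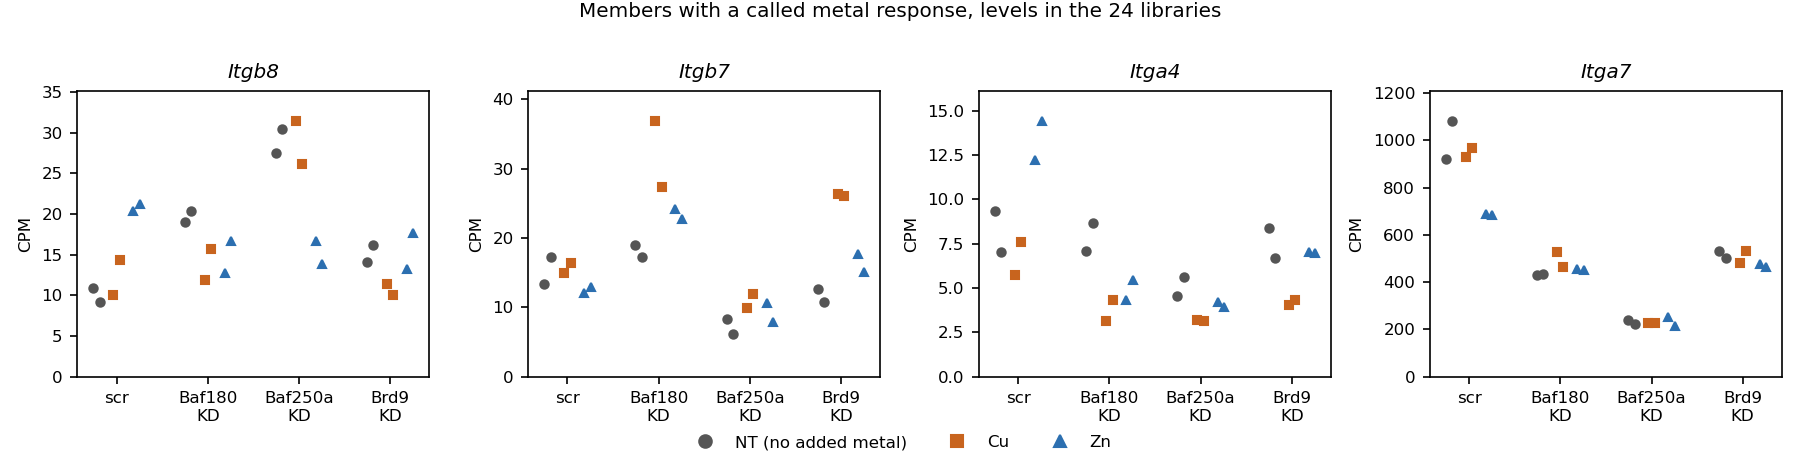
Levels in CPM (linear axes from 0) of Itgb8, Itgb7, Itga4 and Itga7 in each of the 24 libraries, by line and treatment (circles NT, squares Cu, triangles Zn). Itgb8 is at 20.4 and 21.2 CPM in scr with Zn against 10.9 and 9.19 without, and at 16.7 and 13.8 CPM in Baf250a KD with Zn against 27.5 and 30.4 without.

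Whether a KD line answered a metal differently from scr was tested as the difference of the responses over all 24 libraries. For Cu, 6 of 31 genes differed in Baf180 KD (5 above and 1 below the scr response, 12.8% of all genes, 5.39% above and 7.41% below). None did in Baf250a KD (3 at an unadjusted p under 0.05 in edgeR and 0 called by DESeq2; 0.0121% of all genes) or in Brd9 KD (5 at an unadjusted p under 0.05 in edgeR and 1 called by DESeq2; 0.0363% of all genes). The largest were those of Lamb3 (log2 1.77 ± 0.37), Itgb7 (0.82 ± 0.22) and Itgb8 (-0.79 ± 0.25) in Baf180 KD. Lamb3 had 0.585 and 1.05 CPM in scr with Cu against 1.94 and 1.59 without, and 3.87 and 3.58 in Baf180 KD with Cu against 2.29 and 2.10 without. Itgb7 had 14.9 and 16.4 CPM in scr with Cu, close to its untreated level. Itgb8 had 10 and 14.3 CPM with Cu in scr, and 11.9 and 15.7 with Cu against 19.0 and 20.4 without in Baf180 KD cells.

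For Zn, 9 genes differed in Baf180 KD, 6 in Baf250a KD and 4 in Brd9 KD, where 28.7%, 30.5% and 11.1% of all genes did. Of the 9, 6 and 4, 7, 4 and 3 were above the scr response, where 16.1%, 17.3% and 5.86% of all genes were, and 12.6%, 13.2% and 5.25% below. Over all genes the Brd9 KD calls split into 969 above and 868 below, and into 720 and 1009 with RLE size factors. Itgb8 had the largest difference in each, at -1.38 ± 0.25 (adjusted p = 0.00112, edgeR), -1.80 ± 0.28 (adjusted p = 0.000227) and -0.98 ± 0.25 (adjusted p = 0.0289). With Zn it had 20.4 and 21.2 CPM in scr, 12.8 and 16.7 in Baf180 KD, 16.7 and 13.8 in Baf250a KD, and 13.2 and 17.7 in Brd9 KD cells, so its Zn level was highest in scr, where its untreated level was lowest. The Zn response of Itgb7 was above that of scr by 0.75, 0.90 and 0.83, with 12 and 13.0 CPM in scr with Zn, 24.2 and 22.7 in Baf180 KD, 10.6 and 7.89 in Baf250a KD, and 17.7 and 15.1 in Brd9 KD cells. Itga4 was below by -1.31 in Baf180 KD and -0.90 in Baf250a KD, where the correction for GC and length turned the latter to 0.0722, with 12.2 and 14.4 CPM in scr with Zn against 9.32 and 7.05 without. With Zn it had 4.33 and 5.45 CPM in Baf180 KD, below both untreated libraries of that line, and 4.24 and 3.94 in Baf250a KD. The last value is 2 counts in the shallow library, too few to set against the untreated level. Itgb7 and Itgb8 had 4 and 7 counts in that library. Itgb5 was above by 0.48 ± 0.15 in Brd9 KD, where it had 134 and 118 CPM with Zn against 124 and 109 without, while scr had 92.3 and 95 against 106 and 127. All 3 comparisons share the same scr libraries, whose GC slopes differed with Zn as given above. With GC content and length corrected for, Itga7 and Itgb8 remained called in Baf180 KD, 3 of the 6 genes (Itga7, Itgb8 and Lamb1) remained in Baf250a KD and none of the 4 in Brd9 KD. In Baf250a KD the correction added calls for Itga3 and Itgav. For Cu in Baf180 KD Lamb3 remained. Itgb8 was then -0.46 (adjusted p = 0.0366) in Baf180 KD and -0.79 (adjusted p = 0.0017) in Baf250a KD.

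The comparison of Itgb8 with scr changed direction with Zn. The gene was called higher than scr without metal in all 3 lines and called lower with Zn in Baf180 KD (log2 -0.49 ± 0.13, adjusted p = 0.0138, edgeR) and in Baf250a KD cells (-0.31 ± 0.14, adjusted p = 0.0465). With GC content and length corrected for these Zn values were -0.02 and 0.10, neither called.

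Metal response elements, the sites that the zinc-sensing factor MTF1 binds, were searched for as the cores TGCACNC and TGCGCNC on both strands of the windows before the start. Either core lay in 7 of the 26 windows of integrin and laminin genes (26.9%) and in 21.4% of all 32851 windows. Itgav and Itgb1 were the 2 of these whose window lay wholly outside the annotated gene. They are shown for that reason, with matches in capitals, and neither was called in any of the 8 metal responses. The other matches lay in windows of Itga3, Itgb6, Itgb8, Lamb1 and Lamb3. All of these but Itgb6 were called in some metal response, as given above. So were Itga1, Itga4, Itga11, Itgb7, Lama5 and Lamb2, whose windows held no match. The calls of Itgb8 and Lamb1 with Zn in scr were lost with GC content and length corrected for. The matching windows of Itgb8 and Lamb3 lay wholly inside the annotated gene. Whether a match goes with a metal response was not tested. The 2 windows shown are RefSeq's for GRCm38.p6 on the plus strand, chr2:83724147-83724396 and chr8:128685404-128685653.
Itgav: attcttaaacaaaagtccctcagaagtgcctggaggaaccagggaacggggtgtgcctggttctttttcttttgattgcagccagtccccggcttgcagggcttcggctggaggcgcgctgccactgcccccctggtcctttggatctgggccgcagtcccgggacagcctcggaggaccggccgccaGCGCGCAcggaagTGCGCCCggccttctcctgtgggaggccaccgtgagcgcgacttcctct
Itgb1: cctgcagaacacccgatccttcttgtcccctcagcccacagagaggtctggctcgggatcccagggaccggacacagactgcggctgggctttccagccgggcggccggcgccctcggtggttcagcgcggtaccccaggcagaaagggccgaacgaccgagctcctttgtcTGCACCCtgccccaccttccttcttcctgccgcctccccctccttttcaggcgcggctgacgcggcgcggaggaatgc
A match of 7 letters is a description of the sequence and shows no binding.

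Genes that work beside the integrins were followed as a list of 37 symbols, most of them adaptors, kinases and actin linkers inside the cell. Icap1 is absent from the counts under that symbol, and Cd47 and Cd151 encode proteins of the cell surface. Of 34 tested, 14 were called in untreated Baf180 KD (7 higher, 7 lower), 24 in Baf250a KD (13 and 11) and 11 in Brd9 KD (4 and 7). These are 41.2%, 70.6% and 32.4% of those tested, beside 41%, 57.8% and 29.2% of all genes, with medians of the absolute log2 fold change of 0.29, 0.51 and 0.21 beside 0.39, 0.53 and 0.32 over all genes. The same 4 genes led in all 3 lines. Dab2, an endocytic adaptor of integrins, was 5.98-fold, 6.12-fold and 2.98-fold higher, and Tns3, a tensin that ties them to actin, 2.71-fold, 2.91-fold and 1.76-fold higher. The kinase gene Src was 2.29-fold, 2.52-fold and 1.47-fold lower, and Ptk2b, a kinase related to focal adhesion kinase, 2.34-fold, 2.95-fold and 1.44-fold lower.

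Partners of laminin in the basement membrane and the dystroglycan complex, a list of 35 genes, were called in 21 of 31 tested in Baf180 KD (13 higher, 8 lower), 23 in Baf250a KD (15 and 8) and 14 in Brd9 KD (8 and 6). These are 67.7%, 74.2% and 45.2% of those tested, beside 41%, 57.8% and 29.2% of all genes (21.7%, 28.9% and 15.1% higher, and 19.3%, 28.9% and 14.1% lower). The medians of the absolute log2 fold change were 0.65, 0.98 and 0.36, beside 0.39, 0.53 and 0.32 over all genes. Nid2, a nidogen that links laminin to type IV collagen, was 9.64-fold higher in Baf180 KD and 20.2-fold higher in Baf250a KD cells. Sgcd, a sarcoglycan of the dystrophin complex, was 10.4-fold higher in Baf180 KD and 6.78-fold higher in Brd9 KD, and the matrix protease gene Mmp2 was 13.3-fold higher in Baf250a KD and 4.39-fold in Brd9 KD. These rises were not confined to the lines named. Untreated Sgcd had 12 and 12.3 CPM in Baf250a KD against 1 and 0.91 in scr. Mmp2 had 143 and 130 CPM in Baf180 KD against 24.8 and 27, and Nid2 184 and 164 in Brd9 KD against 43.4 and 43.8. Fn1, the fibronectin gene and ligand of the Itga5 product, was 1.79-fold, 2.11-fold and 1.42-fold lower. Cd44, a hyaluronan receptor, was 2.37-fold lower in both Baf180 and Baf250a KD cells, and Ntn1, a netrin, 1.56-fold lower in Brd9 KD. Untreated Ntn1 had 79.6 and 74.8 CPM in Baf180 KD and 86.5 and 81.7 in Baf250a KD, against 109 and 130 in scr. Cd44 had 1140 and 1020 CPM in Brd9 KD against 1200 and 1230 in scr.

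With metal in both lines, 11, 17 and 6 of the 34 adhesion genes and 19 of 31, 20 of 30 and 9 of 31 laminin partners were called in Cu in Baf180, Baf250a and Brd9 KD, where 24.9%, 41.2% and 12.2% of all genes were. In Zn 20, 21 and 8 adhesion genes and 25, 22 and 16 of 31 laminin partners were called, where 49.9%, 57.5% and 23.2% of all genes were. Metal itself called at most 5 of the 34 adhesion genes within a line (Zn in scr, where 17.6% of all genes were called) and at most 3 of 31 laminin partners (Cu in Baf180 KD, 13.8% of all genes). The difference of the Zn response from scr was called for 10, 10 and 3 of 35 adhesion genes and 5, 7 and 5 of 31 laminin partners, where 28.7%, 30.5% and 11.1% of all genes were called. That of the Cu response was called for 2, 0 and 0 adhesion genes (9, 1 and 6 at an unadjusted p under 0.05, edgeR) and 3, 0 and 0 laminin partners (9, 1 and 5), where 12.8%, 0.0121% and 0.0363% of all genes were. Between KD lines 20, 16 and 23 of the 35 and 21, 21 and 23 of the 31 differed (Baf180 against Baf250a, Baf180 against Brd9 and Baf250a against Brd9 KD), where 45.1%, 37.5% and 54.5% of all genes did.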

How the data were processed

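RNA was depleted of ribosomal RNA with RNase H and made into strand-specific libraries. Per the methods, reads were mapped to mm10 with STAR, and uniquely mapped reads were counted per gene with featureCounts; the annotation used for counting is not given in the sources used here. The authors deposited raw counts per gene symbol for the 24 libraries, which were used as deposited. Deposited tables of the authors' own DESeq2 comparisons hold fold changes and p-values and were not used. Groups come from sample titles, since the treatment field of the labels contradicts them.

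Each comparison was fitted across all genes with edgeR 4.0.16 in R 4.3.3 (TMM factors, filterByExpr, quasi-likelihood F test, two-sided) and called at a Benjamini-Hochberg adjusted p under 0.05. KD against scr used 4 libraries, metal responses used the 6 of a line, and differences of responses and KD against KD used all 24 with 12 group means. CPM are edgeR's, with TMM factors from all libraries, and levels per kb use the exon length in GENCODE M21. Intervals of count ratios are exact 95% intervals and cover counting error only. The alternatives were RLE size factors, DESeq2 1.42.0, no filter on low counts, a correction for GC content and length (spline of 5 df), a replicate block, all 24 libraries in 1 fit, and each library left out. The fits were tested on simulated data. Deviations from group means showed a weak link between libraries of 1 number in all 3 pairs of Baf180 KD treatments (r = 0.134, 0.153 and 0.247). No other line had it in all 3 pairs, though scr Cu with Zn reached 0.278 and Brd9 KD NT with Zn 0.187. Blocked counts therefore stand beside the metal responses of Baf180 KD.

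The members and lists were chosen with earlier results of these data known. Values per library are given for Lama4, for up to 4 called genes with the largest rise and 4 with the largest fall per untreated comparison, and for up to 3 with the largest change in the others. Of the 2 partner lists, up to 2 that rose and 2 that fell are named per untreated comparison. The values of 1 member and 1 marker are not reported here, though both are included in the counts.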

Additional observations from a re-analysis of the deposited data

Results flagged for a closer look

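A KD line and scr differed in their response to a metal, by edgeR's test of the difference itself over all 24 libraries, for 25 pairs of a gene and a comparison. For Cu these were, in Baf180 KD against scr, Lamb3 at a log2 difference of 1.77 (adjusted p = 0.0097), Itgb7 at 0.82 (0.0231), Itga3 at 0.53 (0.0132), Lama5 at 0.40 (0.0369), Lamb2 at 0.40 (0.0478) and Itgb8 at -0.79 (0.0438). The Cu calls are 19.4% of the genes tested, where 12.8% of all genes were called. With GC content and length corrected for, only Lamb3 remained.

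For Zn in Baf180 KD the log2 differences were -1.38 for Itgb8, -1.31 for Itga4, 0.75 for Itgb7, 0.69 for Itga7, 0.51 for Itgb5, 0.46 for Lamb2, 0.43 for Lama5, 0.43 for Lamb1 and 0.37 for Itga3 (largest adjusted p = 0.0302, edgeR). In Baf250a KD they were -1.80 for Itgb8, -0.90 for Itga4 (0.0722 once GC content and length were corrected for), 0.90 for Itgb7, 0.66 for Itga7, 0.64 for Lamb1 and 0.57 for Itgb5 (largest adjusted p = 0.0399). In Brd9 KD they were -0.98 for Itgb8, 0.83 for Itgb7, 0.48 for Itgb5 and 0.46 for Itga7 (largest adjusted p = 0.0435). The Zn calls are 29%, 19.4% and 12.9% of the genes tested in Baf180, Baf250a and Brd9 KD, where 28.7%, 30.5% and 11.1% of all genes were called. The Zn differences share the 2 untreated and 2 Zn libraries of scr, and the GC slopes of these libraries moved with them as described above. With GC content and length corrected for, Itga7 and Itgb8 remained in Baf180 KD. Itga7, Itgb8 and Lamb1 remained in Baf250a KD and none of those named in Brd9 KD.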

How the results depend on the processing

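Depth limits Lama4, Itga11, Lama1 and Itga1 in scr, where untreated libraries hold 6 to 8 counts in all, and every gene of low level in the shallow Baf250a KD Zn library. Among 64 values of named genes, 63 kept direction and side of the threshold with RLE size factors, 61 with every gene of at least 1 count, 52 with the GC content and length correction, 54 of 62 with DESeq2, 39 of 42 with all 24 libraries in 1 fit, 618 of 720 with 1 library left out, 60 with the block and 50 with the block and that correction. Most losses lay in the metal results. Of 12 differences of responses 3 kept their call with the correction (8 lost it and 1 reversed). Metal responses kept 39 of 72 with 1 library left out. The untreated values of named genes, which are the largest rises and falls of each comparison, kept 24 of 24 with the correction and 82 of 96 with 1 library left out. Smaller untreated changes did not all keep theirs. The correction removed the calls of Itgb8 in Brd9 KD and Itgav in Baf180 KD and added Itgb1 in Baf180 and Brd9 KD, as given above. With DESeq2 the untreated values kept 20 of 24 and the metal responses 7 of 11. The 1 that reversed was the Zn difference of Itga4 between Baf250a KD and scr, from -0.90 to 0.0722 with the GC content and length correction and to 0.0924 with it and the block. The causes of the changes below were not tested.

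Counts of called genes that moved by over 1.5 times were these. With every gene of at least 1 count, Brd9 KD against scr in Cu gave 18 (from 11), Cu in scr 1 (from 0), Cu in Baf180 KD 10 (from 6), Zn in Baf180 KD 3 (from 0), Cu in Brd9 KD 3 (from 1), the Cu difference of Brd9 KD 2 (from 0) and the Zn difference of Baf180 KD 5 (from 9). With the GC content and length correction, Zn in scr gave 1 (from 4), Cu in Baf180 KD 3, the Cu difference of Baf180 KD 1 (from 6), and the Zn differences of Baf180 and Brd9 KD 2 and 0 (from 9 and 4). DESeq2 gave 0 for Cu (from 2) and 0 for Zn (from 3) in Baf250a KD, 2 for Cu in Brd9 KD and 1 for the Cu difference of Brd9 KD. With all 24 libraries in 1 fit, Brd9 KD against scr in Cu gave 18, Zn in scr 8, and Cu and Zn in Baf250a KD 1 and 1. By longest transcript length the Lama5 share was 97.1%, 81.8%, 50% and 91.3% in scr, Baf180, Baf250a and Brd9 KD.

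With the replicate number as a block, Zn in scr gave 0, Cu in Baf180 KD 13 and Zn in Baf180 KD 3. The block with the GC content and length correction gave 0 for Zn in scr, 5 for Cu in Baf250a KD, 1 for the Cu difference of Baf180 KD, and 3 and 0 for the Zn differences of Baf180 and Brd9 KD. Over the 21 pairs of groups that were compared, libraries with the same number deviated together with a correlation of -0.186 to 0.278 (8 over 0.1), and in Baf180 KD all 3 pairs were over 0.1. Outside Baf180 KD the libraries share a number without such a link in every pair. Over all genes the block moved the Cu calls of Baf180 KD from 2097 to 3892 and its Zn calls from 3 to 657. The Zn calls of scr over all genes went from 2645 to 14 with the block.

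With 1 library left out, the counts ran from 13 to 20, 23 to 25 and 6 to 15 for untreated Baf180, Baf250a and Brd9 KD against scr, from 10 to 22, 17 to 23 and 2 to 18 in Cu, and from 22 to 26, 15 to 26 and 11 to 21 in Zn. The Cu responses ran from 0 to 0 in scr, 0 to 7 in Baf180 KD, 1 to 3 in Baf250a KD and 0 to 1 in Brd9 KD, and the Zn responses from 0 to 6, 0 to 0, 0 to 7 and 0 to 0. The Cu differences ran from 0 to 9, 0 to 0 and 0 to 2 in Baf180, Baf250a and Brd9 KD, and the Zn differences from 3 to 9, 2 to 7 and 0 to 5. KD against KD ran from 18 to 25, 19 to 21 and 21 to 29. The Cu difference of Baf180 KD was 0 without its Cu replicate 1 or scr NT replicate 2, 1 without its NT replicate 2 or scr Cu replicate 2, and 3 without its NT replicate 1, Baf250a KD NT replicate 1 or either scr Zn library. The Zn difference of Baf180 KD was 3 without scr NT replicate 2, 4 without its Zn replicate 1 or scr Zn replicate 2, and 5 without its NT replicate 2. That of Baf250a KD was 2 without its Zn replicate 1, and 3 without its NT replicate 2 or scr NT replicate 2. That of Brd9 KD was 0 without its NT replicate 2, its Zn replicate 1, scr NT replicate 2 or either scr Zn library, and 2 without either Cu or NT library of Baf250a KD.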
